A study of Arabidopsis thaliana with 24 samples.

Results

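The 33 genes of the deposited count table whose codes begin with ATMG, the prefix of the mitochondrial genome of Arabidopsis thaliana, were followed through all 24 libraries. They are all the rows with that prefix, 33 of 14557 genes in the table, and the rule uses no measured value. The libraries come from roots and shoots of 7 d old seedlings of a line the labels call ulox, a name they do not define, and no wild type is among the samples used here. Seedlings grew at 21 °C in 16 h days and 8 h nights on medium with 1% sucrose, and were then placed in water or in 30% polyethylene glycol (PEG), a polymer that lowers the water potential, here to -2.0 MPa. Each tissue gave 4 groups of 3 replicates, lettered A to C: water for 1 h and PEG for 1, 2 or 3 h, with 30 to 50 seedlings pooled in each replicate, so p-values measure the spread between such pools. The 3 PEG times of a tissue share the same 3 water libraries, and the 2 h and 3 h groups also differ from water in the time spent in liquid. Source names give the water libraries as 1 h, which is used here, although their titles carry a time of 0.

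Counts are of 3′ ends of transcripts, from MARS-seq, a method that primes on poly(A) tails and adds a barcode to each molecule. Plant mitochondria keep a small genome with genes for ribosomal and transfer RNAs and for some subunits of the respiratory chain, the ATP synthase, the cytochrome c maturation machinery and the mitochondrial ribosome. Most mitochondrial proteins are encoded in the nucleus and imported. A poly(A) tail in plant mitochondria is a mark of RNA decay rather than of stability, and counts of tailed 3′ ends are not a direct measure of transcript level. Neither the table nor the annotation used here (RefSeq, TAIR10.1) pairs ATMG codes with gene names: 14457 of 14557 codes matched a reference entry, but 0 of the 33 did. The same holds for all 67 chloroplast codes. The genes are therefore given by code, without sequence.

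Notes that the reference attaches to nuclear relatives mention 6 of the 33, and give 4 of them a function. ATMG00180 is noted as cytochrome c biogenesis 452, ATMG01090 as the mitochondrial ATP synthase subunit 9, ATMG00560 as a nucleic acid-binding protein of the OB-fold type, and ATMG01110 as an RNA-dependent RNA polymerase of a mitovirus. ATMG01220 is noted as an unknown protein, and ATMG01330 has a nuclear pseudogene copy, AT2G07808. These 6 were sparse: ATMG00180 had 139 counts over the 24 libraries, ATMG01090 95, ATMG01330 68, ATMG00560 53, ATMG01220 39 and ATMG01110 18.

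Library totals ran from 1597302 to 7029587 counts in root and from 1203312 to 6090852 in shoot. Marker genes were in their labelled tissue. RBCS1A (AT1G67090), a small subunit of Rubisco, lay between 95.0 and 368 CPM (counts relative to the library total, here with TMM factors) in root and between 24024 and 33311 in shoot. CASP1 (AT2G36100), which marks the root endodermis, lay between 249 and 743 CPM in root and between 2.68 and 8.52 in shoot. A separate tissue field reads root for every sample and was not used.

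The mitochondrial genes took a much larger share of counts in root than in shoot. In root water their share was 3.80%, 6.96% and 5.24% in replicates A, B and C, a mean of 5.33% ± 1.58 (SD, n = 3). In shoot water it was 0.259%, 0.263% and 0.300%, a mean of 0.274% ± 0.0226 (SD, n = 3), so the root mean was 19.5 times the shoot mean. Over all conditions the 12 root libraries lay between 2.41% and 6.96% and the 12 shoot libraries between 0.170% and 0.300%, with no overlap. The 95% Wilson interval, which covers counting error only, reached, averaged over its 2 sides, at most 0.0364 percentage points in root and 0.00891 in shoot, and in each of the 8 groups the widest such interval reached less far than the SD of that group. In bulk tissue, fewer cells of a type and less RNA per cell cannot be told apart. Chloroplast-encoded genes ran the other way, from 0.00335% to 0.0367% of counts in root and from 0.137% to 0.416% in shoot.

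With PEG the mean root share was below that of water, but the groups overlapped at all 3 times. After 1 h of PEG it was 4.61%, 3.99% and 2.41% (mean 3.67% ± 1.13, SD, n = 3), after 2 h 5.24%, 2.83% and 2.73% (mean 3.60% ± 1.42), and after 3 h 3.07%, 5.75% and 2.55% (mean 3.79% ± 1.72). Water replicate A, at 3.80%, was below the highest library of each PEG group. In shoot the share was 0.235%, 0.256% and 0.270% after 1 h (mean 0.254% ± 0.0173), 0.261%, 0.249% and 0.249% after 2 h (mean 0.253% ± 0.00721), and 0.249%, 0.170% and 0.214% after 3 h (mean 0.211% ± 0.0394). At 3 h every shoot PEG library was below every shoot water library, although replicate A, the shallowest of all 24 libraries with 1203312 counts, was only just below. Shares are sums over genes and were not tested.

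**Figure D1:**
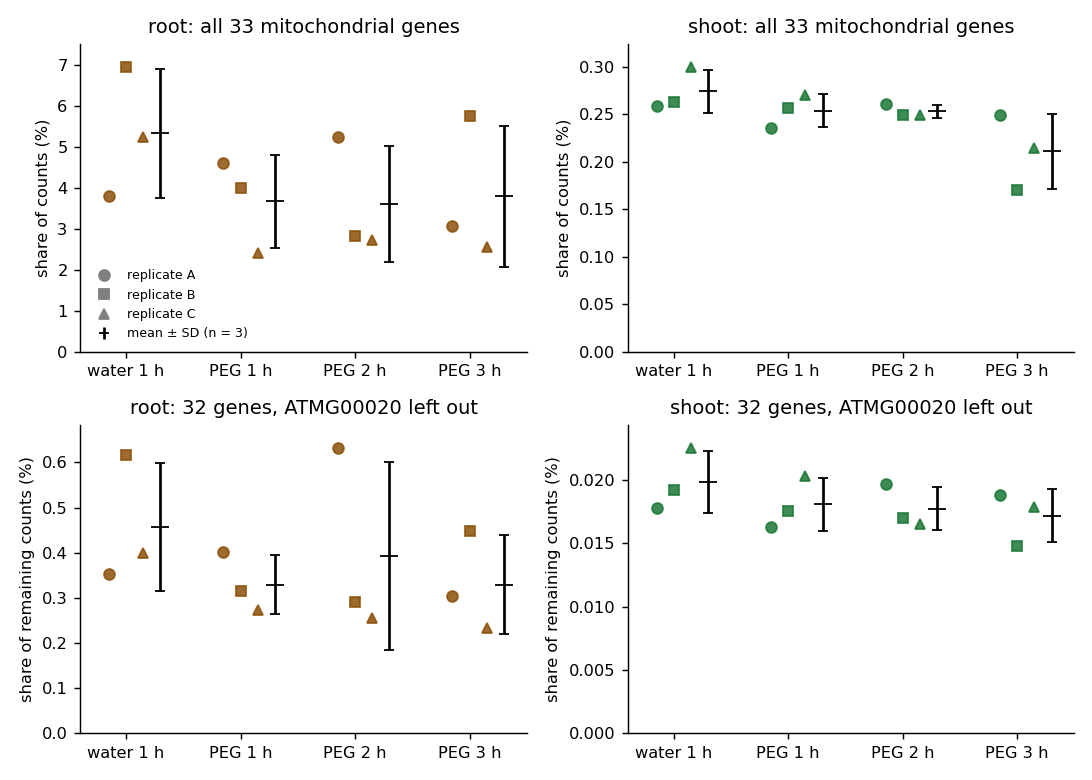
Share of library counts (%) held by the 33 mitochondrial genes (top) and by 32 of them with ATMG00020 left out of both sum and total (bottom), in root (left) and shoot (right). Points are libraries by replicate letter, and bars are the mean ± SD of 3. Root means fall between 3.60% and 5.33% and shoot means between 0.211% and 0.274%, with overlap of PEG and water in every panel except all 33 genes in shoot at 3 h.

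One gene made up nearly all of these counts. ATMG00020 had 1383148 counts, 91.0% of the counts of all 33 genes, and its part of them was 88.5% to 92.7% in root libraries and 91.3% to 93.4% in shoot libraries. ATMG01390 had 115204 counts, 7.58% of the total. The other 31 genes together held the rest, led by ATMG01380 with 6108, ATMG00660 with 5140, ATMG00690 with 2802 and ATMG00160 with 1281 counts. Transcript lengths are not linked to the codes here, so the order of genes is one of counts, not of level per length.

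Leaving out ATMG00020 lowered the share to 0.456% ± 0.141 (SD, n = 3) in root water and to 0.329% ± 0.0652, 0.392% ± 0.208 and 0.328% ± 0.110 after 1, 2 and 3 h of PEG. The single root libraries lay between 0.352% and 0.617% in water and between 0.232% and 0.632% in PEG, so they overlapped. In shoot the values were 0.0199% ± 0.00245 in water and 0.0181% ± 0.00207, 0.0178% ± 0.00169 and 0.0172% ± 0.00209 in PEG, also overlapping. The separation of shoot PEG from water at 3 h was therefore seen with ATMG00020 in the sum and not without it. Leaving out ATMG01390 as well, the remaining 31 genes held 0.0371% ± 0.0124 of root water counts. In root PEG they held 0.0518% ± 0.0135, 0.0627% ± 0.0324 and 0.0450% ± 0.0159, means above that of water where the means of ATMG00020 were below it, with overlap at each time.

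Of the 33 genes, 22 had enough counts for a test in root and 9 in shoot. The test was edgeR's quasi-likelihood test with Benjamini-Hochberg adjustment over all genes tested, 9751 in root and 9207 in shoot, and a gene was called at an adjusted p under 0.05. A gene enters through the groups where it is high, so the tested genes do not stand for all 33. The remaining 11 genes had 18 to 95 counts over the 24 libraries, between 15 and 83 in root and between 0 and 16 in shoot. ATMG00520 and ATMG01220 were at 0 in all 12 shoot libraries and had 28 and 39 counts in root.

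All 33 genes had a higher CPM in root than in shoot when the 12 libraries of each tissue, water and PEG together, were summed, here over library totals without TMM factors. The share of all genes higher in root on this scale is not given here. In the water contrast, library totals moved the median log2 difference of all genes tested from -0.02 to 0.28, toward root. For the 27 genes with more than 3 shoot counts the root level was 2.24 to 30.6 times the shoot level, with a median of 6.50. ATMG01390 was at the top of that range with 2833 CPM in root and 92.5 in shoot. ATMG00020 had 32856 CPM in root and 2302 in shoot, a ratio of 14.3. ATMG01370 was at the bottom, with 14.4 CPM in root and 6.43 in shoot. The dominant gene was thus not the one with the largest tissue difference.

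**Figure D2:**
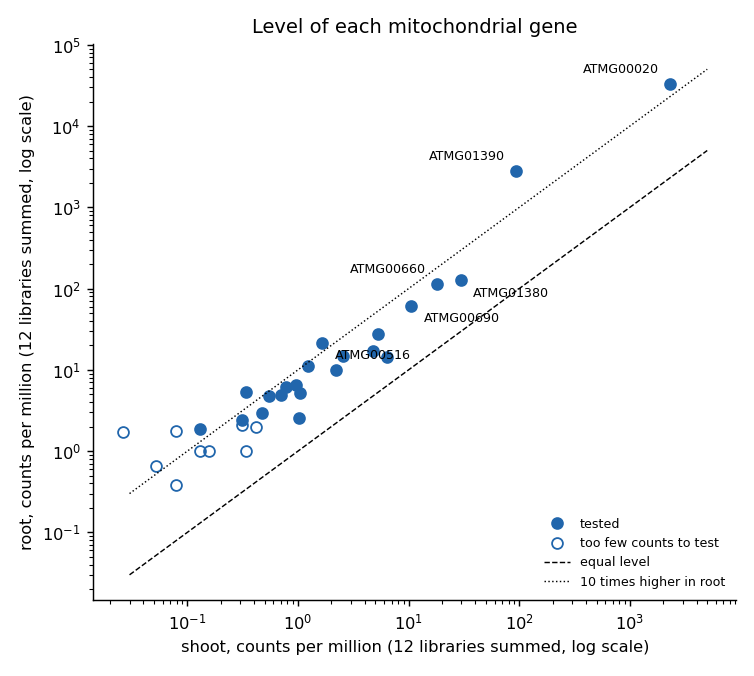
Level of each mitochondrial gene in shoot (x axis) and root (y axis), in CPM over the 12 summed libraries of a tissue without TMM factors, both on log scales. Filled points are the 22 genes tested between tissues and open points those with too few counts, and the 2 genes at 0 in shoot are not drawn. Every point lies above the dashed line of equal level, between 2.24 and 30.6 times for the 27 genes with more than 3 shoot counts.

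In water, 9 of the 22 tested genes were higher in root than in shoot and 0 were lower, where 27.1% of the 10967 genes tested were higher and 26.2% lower. An unadjusted p under 0.05 in edgeR's test was reached by 12 of the 22, beside 6391 of all 10967 genes tested. Only 9 of the 22, not the same 9, passed the filter on low counts in shoot alone. Of the genes called, ATMG00030, ATMG00516, ATMG00665 and ATMG09980 did not pass it. The 22 thus entered largely through root, where they are high, and the shares of all genes are no like comparison. ATMG00020 had 117290, 119923 and 78269 counts in the root water libraries and 6095, 4132 and 9039 in the shoot water libraries. The log2 difference between tissues was 4.05 ± 0.48 (SE), with an adjusted p of 9.99e-08 in edgeR's test. ATMG01390 had 10482, 9897 and 5652 counts in root water and 221, 158 and 398 in shoot water, with a log2 difference of 5.07 ± 0.48 and an adjusted p of 3.11e-09 in the same test. Both genes were higher in all 3 root water libraries than in any shoot water library.

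The other 7 genes called were less abundant. ATMG00516 had a log2 difference of 3.21 ± 0.63, ATMG00665 of 3.19 ± 0.85, ATMG00030 of 3.01 ± 0.71 and ATMG00660 of 2.55 ± 0.43. ATMG00690 differed by 1.70 ± 0.51, and its call was lost in 2 of 31 alternative settings, without shoot water replicate A and without root water replicate B. ATMG00670 (log2 1.32 ± 0.53, adjusted p 0.0394 in edgeR's test) and ATMG09980 (log2 3.16 ± 1.34, adjusted p 0.0490) were borderline, and were lost in 21 and 23 of 31 settings, among them the replicate block, no filter, and without any 1 of the shoot water libraries or root water replicate B. ATMG09980 had 12 counts in the 3 root water libraries and 1 in the 3 shoot water libraries. Of the 13 tested genes without a call, ATMG00640 had the only negative log2 difference, -0.76 ± 0.82. On the CPM scale, 12 of the 22 were higher in every root water library than in every shoot water library, where 28.7% of all genes tested were. The same limit of the filter applies to this count. In the authors' deposited table, 8 of the 33 genes had an adjusted p under 0.05 for root against shoot in water, all 8 higher in root. These 8 were the 9 called above without ATMG09980. The matching share of all genes in the deposited table is not given here.

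Composition also differed between the tissues. For every 1000 counts of ATMG00020, ATMG01390 had 81.4 ± 8.64 counts in root water and 39.5 ± 4.04 in shoot water (SD, n = 3). The 31 minor genes together had 7.66 ± 1.53 in root water and 38.3 ± 1.85 in shoot water, a ratio of 0.1999. Every library of one tissue was separate from every library of the other in both measures. As shares of counts, ATMG00020 was 19.3 times and the sum of the minor genes 3.82 times as high in root water as in shoot water.

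No mitochondrial gene passed the test in root at any PEG time, where the test called 0.472% of all genes tested at 1 h, 0.185% at 2 h and 0.226% at 3 h. An unadjusted p under 0.05 in edgeR's test was reached by 2, 4 and 1 of the 22 genes, beside 1248, 780 and 763 of all 9751 tested. DESeq2 and limma-voom on the same counts also called 0 of the 22 at each time. The shares of all genes called by these methods in root are not given here. The spread between root libraries was wide, with a biological coefficient of variation of 34.2% against 17.2% in shoot. The median log2 change of the 22 genes was 0.16 at 1 h, 0.43 at 2 h and 0.29 at 3 h, beside 0.13, 0.06 and 0.11 over all genes tested. The sign was positive for 13, 16 and 15 of the 22, beside 5622, 5398 and 5689 of all 9751 genes tested.

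ATMG00020 was at 34592, 90459 and 49754 CPM in root water. In root PEG it was at 41044, 33901 and 18234 CPM at 1 h, at 55674, 23860 and 20860 at 2 h, and at 27630, 69118 and 18243 at 3 h. Water replicate B was the highest of the 12 libraries, and water replicate A was below the highest library of each PEG time. The log2 changes were -0.91 ± 0.58, -0.80 ± 0.58 and -0.60 ± 0.58 (SE), with adjusted p of 0.494, 0.797 and 0.782 in edgeR's test. ATMG01390 was at 3091, 7465 and 3593 CPM in root water, and its log2 changes were -0.94 ± 0.54, -0.50 ± 0.54 and -0.69 ± 0.54. Its PEG libraries lay between 1566 and 6050 CPM and overlapped with water at each time.

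Many of the minor genes had values on the other side of 0. ATMG01380 was at 50.7, 124 and 51.5 CPM in root water, at 96.5, 216 and 96.4 after 1 h of PEG, at 413, 147 and 76.1 after 2 h, and at 140, 154 and 51.3 after 3 h. The groups overlapped, and the log2 changes were 0.86 ± 0.61, 1.49 ± 0.62 and 0.61 ± 0.61 with adjusted p of 0.536, 0.549 and 0.789 in edgeR's test. ATMG00660, of similar abundance, had log2 values of -0.76 ± 0.49, -0.26 ± 0.49 and -0.67 ± 0.49. ATMG00690 had values of 0.26 ± 0.56, 0.47 ± 0.56 and 0.42 ± 0.56, and ATMG00160 of 0.74 ± 0.69, 1.15 ± 0.68 and 1.30 ± 0.69.

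The values farthest above 0 in root were those of sparse genes. ATMG00640 had 1, 3 and 4 counts in the root water libraries, 12, 14 and 18 after 1 h of PEG, 30, 45 and 25 after 2 h, and 27, 9 and 15 after 3 h. In CPM all 9 PEG libraries were above all 3 water libraries, 3.14 to 14.71 against 0.295 to 2.54. The log2 changes were 1.87 ± 0.75, 2.44 ± 0.73 and 1.75 ± 0.75, with unadjusted p of 0.0268, 0.00506 and 0.0351 and adjusted p of 0.343, 0.321 and 0.591 in edgeR's test. ATMG00510 had 1, 1 and 2 counts in root water, and its log2 values were 1.98 ± 0.94, 2.55 ± 0.89 and 1.07 ± 0.98. ATMG09980 had 5, 4 and 3 counts in root water and log2 values of 1.18 ± 0.81, 2.16 ± 0.77 and 1.49 ± 0.79. ATMG00090 was at 6.78, 3.02 and 5.08 CPM in root water and between 7.03 and 14.4 in all 9 PEG libraries, with log2 values of 1.17 ± 0.42, 0.89 ± 0.41 and 0.89 ± 0.42.

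Separation of all 3 PEG from all 3 water libraries was seen upward for 2 of the 22 genes at 1 h, 3 at 2 h and 2 at 3 h, and downward for 0. Over all genes tested in root the upward share was 12.4%, 7.68% and 8.14% and the downward share 10.5%, 6.03% and 5.79%, so the upward count was near the background. ATMG00640 and ATMG00090 were separate at all 3 times and ATMG00510 at 2 h. Among the remaining tested genes, ATMG00665 had log2 values of -0.83 ± 0.67, -0.36 ± 0.64 and -0.89 ± 0.67. ATMG00040 had 0.69 ± 0.65, 1.29 ± 0.65 and 0.39 ± 0.66, and ATMG01120 had 0.99 ± 0.88, 1.45 ± 0.85 and 0.67 ± 0.89. Values for ATMG00180, noted as a cytochrome c biogenesis gene, were 0.00 ± 0.59, 0.22 ± 0.60 and -0.18 ± 0.63. The other 8 (ATMG00030, ATMG00060, ATMG00516, ATMG00650, ATMG00670, ATMG01020, ATMG01130 and ATMG01370) ranged from -0.51 to 1.14.

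**Figure D3:**
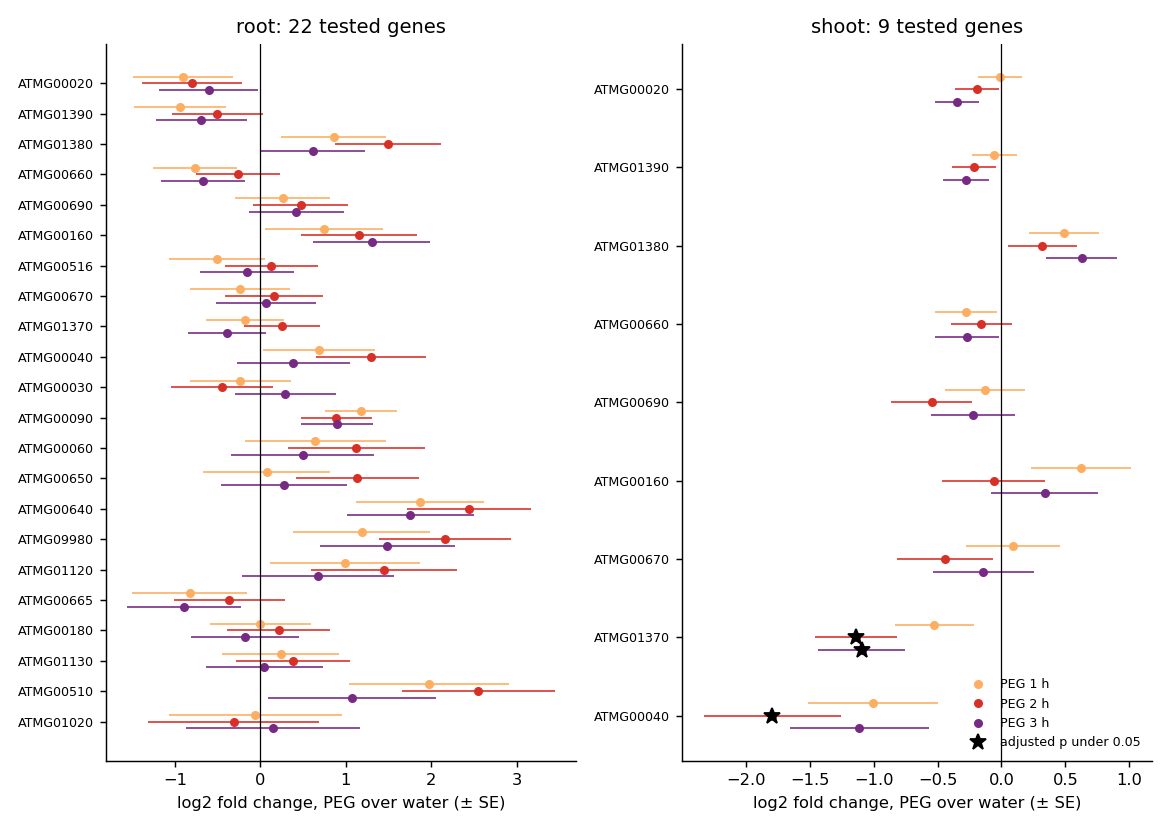
Log2 fold change of PEG over water (x axis, points with ± SE bars, coloured by hours in PEG) for the 22 mitochondrial genes tested in root and the 9 tested in shoot, ordered from most counts (top) to fewest. Stars mark an adjusted p under 0.05. In root ATMG00020 and ATMG01390 lie below 0 at all 3 times and ATMG00640 above, none of them called, and the only stars are ATMG01370 and ATMG00040 in shoot.

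In shoot 0 of the 9 tested genes were called after 1 h of PEG, where 12.4% of all genes tested were. None of the 9 had an unadjusted p under 0.05 in edgeR's test at 1 h, where 2339 of all 9207 genes tested had. DESeq2 and limma-voom also called 0 of the 9. After 2 h 2 of the 9 fell and after 3 h 1 fell, where 3.41% and 6.7% of all genes tested fell. None of the 9 rose, where 7.31% and 10.4% did, and DESeq2 and limma-voom also called none higher. The shares of all genes called by DESeq2 and limma-voom in shoot are not given here. An unadjusted p under 0.05 in edgeR's test was reached by 2 of 9 at 2 h and at 3 h, beside 1848 and 2671 of all 9207 genes tested. At 2 h the 2 of the 9 were ATMG00040 and ATMG01370, both lower, and at 3 h ATMG01370, lower, and ATMG01380, higher. The median log2 change of the 9 was -0.05, -0.22 and -0.27 at 1, 2 and 3 h, beside medians of 0.00, 0.00 and -0.02 over all genes tested.

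ATMG01370 was at 9.32, 8.29 and 12.1 CPM in shoot water, and at 5.68, 7.20 and 8.15 after 1 h of PEG, 4.30, 6.75 and 2.84 after 2 h, and 2.68, 4.22 and 5.93 after 3 h. Every PEG library was below every water library at each time, as for 1, 2 and 2 of the 9 genes at 1, 2 and 3 h, where 12%, 10.6% and 14.4% of all genes tested were. The log2 change was -0.52 ± 0.31 at 1 h (adjusted p 0.315 in edgeR's test), -1.14 ± 0.32 at 2 h (adjusted p 0.0253) and -1.09 ± 0.34 at 3 h (adjusted p 0.0333). Counts behind these values were 25, 14 and 38 in water, 29, 20 and 9 at 2 h, and 3, 12 and 24 at 3 h. The 2 h call was lost in 5 of 20 alternative settings: the replicate block, the joint fit, and without water replicate C, PEG replicate A or PEG replicate C. The 3 h call was lost in 6 of 20: DESeq2, the joint fit, and without water replicate A or C or PEG replicate A or B. In the authors' deposited table its adjusted p was 0.203 at 2 h and 0.220 at 3 h, and 0 of the 33 genes had one under 0.05 in each of the 8 comparisons within a tissue. The matching shares of all genes in the deposited table are not given here. The root log2 values of ATMG01370 were -0.18 ± 0.46, 0.25 ± 0.45 and -0.39 ± 0.46.

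ATMG00040 was at 4.47, 4.74 and 5.42 CPM in shoot water and at 1.48, 1.35 and 1.26 after 2 h of PEG, from 12, 8 and 17 and from 10, 4 and 4 counts. It fell at 2 h, by 1.79 ± 0.54 on the log2 scale, with an adjusted p of 0.0369 in edgeR's test. Its values were -1.004 ± 0.51 at 1 h, where replicate A had 1 count and replicate C 13, and -1.11 ± 0.54 at 3 h (adjusted p 0.229 and 0.184). The call at 2 h was lost in 9 of 20 settings: the replicate block, the joint fit, without any 1 of the water or PEG 2 h libraries, and without PEG 3 h replicate B. Its log2 value stayed between -1.88 and -1.70 over the 20 settings. The direct test of root change minus shoot change gave 3.09 ± 0.90 for ATMG00040 at 2 h, with an adjusted p of 0.125.

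ATMG00020 and ATMG01390, the 2 genes with most counts, had log2 values between -0.35 and -0.01 in shoot, without a call. ATMG00020 was at 2271, 2447 and 2883 CPM in shoot water, and at 2474, 1635 and 1869 CPM after 3 h of PEG, with overlap in this scaling since PEG replicate A was above 2 of the 3 water libraries. Its log2 changes were -0.01 ± 0.17, -0.19 ± 0.17 and -0.35 ± 0.17, with adjusted p of 0.986, 0.659 and 0.194 in edgeR's test. ATMG01390 had -0.05 ± 0.17, -0.22 ± 0.17 and -0.28 ± 0.18. ATMG01380 was at 15.3, 26.6 and 27.1 CPM in shoot water and at 42.9, 35.1 and 30.6 after 3 h, all higher, with a log2 value of 0.63 ± 0.28 (unadjusted p 0.0357, adjusted p 0.138 in edgeR's test). It was the 1 gene of the 9 with this upward separation at 3 h, where 16.9% of all genes tested had it. ATMG00660, ATMG00690, ATMG00160 and ATMG00670 had log2 values between -0.55 and 0.62 over the 3 times.

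Between 1 h and 3 h of PEG, 0 of the 22 genes in root and 0 of the 9 in shoot were called, where 0% and 4.63% of all genes tested were. None of these mitochondrial genes had an unadjusted p under 0.05 in edgeR's test, where 119 of 9751 genes in root and 1647 of 9207 in shoot had. DESeq2 and limma-voom also called 0 of them, and the shares of all genes these methods called are not given here. The change in root minus the change in shoot was tested for 22 genes in a joint fit and called for 0 at each time, where 1.33%, 1.2% and 2.6% of all genes tested were called at 1, 2 and 3 h. An unadjusted p under 0.05 in edgeR's test was reached by 2, 5 and 2 of the 22, beside 1788, 883 and 1398 of all 10967 genes tested. At 2 h the median difference over the 22 was 1.10 on the log2 scale, beside 0.06 over all 10967 genes tested. Positive were 17 of the 22, beside 5940 of all 10967. Only 9 of the 22 passed the filter on low counts in shoot alone. The shoot side of the others rests on few counts, as for ATMG00640 with 40 counts over the 12 shoot libraries. The median and the signs are therefore no comparison of the response of the tissues. ATMG00640 had a difference of 3.79 ± 1.07 at 2 h with an adjusted p of 0.102 in edgeR's test. At that time 1 of the 22 was called by DESeq2 and 1 with scaling by library totals, and limma-voom called 0. Scaling by library totals moved the median of all genes to 0.19, and the shares of all genes called under these settings are not given here.

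Set against ATMG00020 within each library, ATMG01390 kept nearly the same proportion in root. It had 81.4 ± 8.64 counts per 1000 of ATMG00020 in water and 82.5 ± 19.5, 94.8 ± 12.5 and 81.2 ± 11.2 after 1, 2 and 3 h of PEG, all overlapping. The 31 minor genes together had 8.95, 8.05 and 5.97 counts per 1000 in the water libraries. They had 9.76, 18.1 and 22 at 1 h, 21.4, 19.9 and 15.3 at 2 h, and 17.3, 11.1 and 12 at 3 h, so every PEG library was above every water library. The means were 2.17, 2.47 and 1.76 times the water mean. Without ATMG01380 the 1 h libraries overlapped with water and the ratios were 1.88, 2.06 and 1.59. Library totals of the 2 groups overlapped at 1 h, from 1610558 to 3392854 in water and from 1597302 to 3788822 in PEG.

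Most other genes tested in root had a higher ratio to ATMG00020 as well. Counts per count of ATMG00020 were above water for 96.3%, 95.1% and 96.8% of the other genes tested in root at 1, 2 and 3 h, with median ratios of 1.95, 1.86 and 1.86. Among the 21 other mitochondrial genes tested, the ratio was above 1 for 21, 21 and 19, with medians of 2.44, 2.24 and 1.97. Separation of all PEG from all water libraries was seen for 7, 15 and 7 of the 21, where it was seen for 21.9%, 12.1% and 7.2% of the other genes tested. ATMG00640 had 0.0282 counts per 1000 in water and 0.189, 0.241 and 0.158 in PEG, ATMG00160 had 0.299 and 0.980, 1.06 and 0.956, and ATMG00690 had 1.01 and 2.39, 2.16 and 2.00. ATMG00665 was nearer to ATMG00020, with ratios of 1.13, 1.30 and 0.934. These ratios share their denominator and carry no test.

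**Figure D4:**
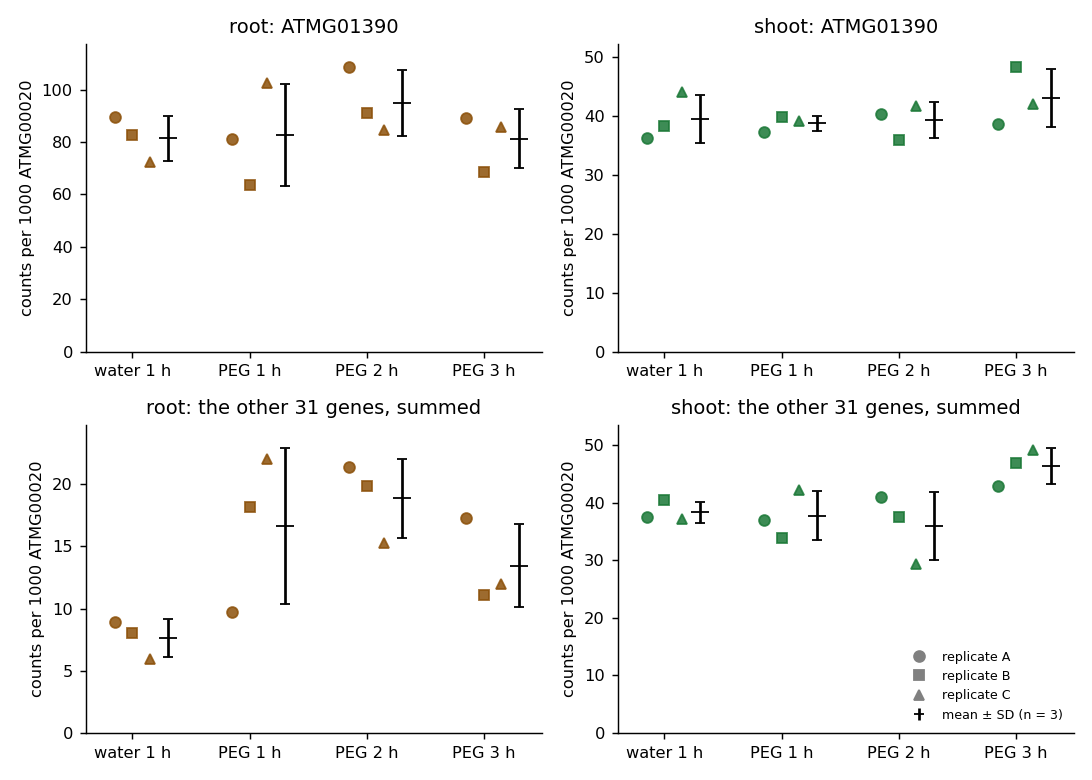
Counts per 1000 counts of ATMG00020 in each library, for ATMG01390 (top) and for the sum of the 31 minor genes (bottom), in root (left) and shoot (right). Points are libraries and bars the mean ± SD of 3. In root the minor genes lie between 5.97 and 8.95 in water and between 9.76 and 22 in PEG, while ATMG01390 overlaps throughout.

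In shoot the same ratio was 38.3 ± 1.85 for the minor genes in water and 37.7 ± 4.24, 35.9 ± 5.92 and 46.3 ± 3.15 in PEG (SD, n = 3). At 3 h the PEG libraries lay between 42.9 and 49.2, above the water libraries at 37.1 to 40.4. The ratio of PEG to water was 1.21, where 73.9% of the other genes tested in shoot had a ratio above 1, with a median of 1.28, and 27.7% had this separation. Without ATMG01380 the ratio was 0.953 and the groups overlapped, and they also overlapped with ATMG01390 as denominator, at a ratio of 1.11. ATMG01390 had 39.5 ± 4.04 counts per 1000 in water and 38.7 ± 1.29, 39.3 ± 3.06 and 43.0 ± 4.94 in PEG.

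Within root, the share of ATMG00020 was lower in deeper libraries. Across the 12 root libraries, log2 share and log2 total gave Pearson's r = -0.80 (permutation p 0.00274, adjusted 0.0110) and Spearman's rho = -0.76 (permutation p 0.00558, adjusted 0.0112), adjusted over 4 relations. Without the 2 libraries farthest from the median total, r was -0.90 (n = 10). Across the 12 shoot libraries r was -0.02 (permutation p 0.987) and rho 0.13 (permutation p 0.704). The total is the denominator of the share. The permutations ran over all 12 libraries of a tissue without regard to group, so their p-values do not part depth from treatment. Mean totals were 2294340 in root water and 2671553, 4770508 and 3398965 in root PEG, so depth and treatment moved together in part, and the part of depth in the root values was not tested. Within root groups of 3, the shallowest library had the highest share in 2 of 4 groups, and in the other 2 the deepest library had the lowest.

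**Figure D5:**
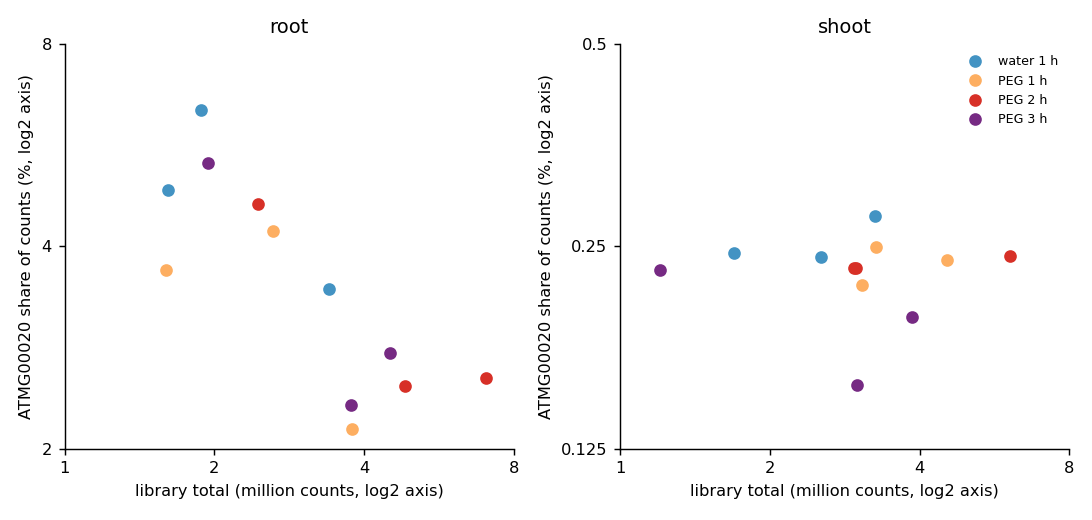
Share of counts held by ATMG00020 (%, y axis) against library total (x axis), both on log2 axes, for the 12 root (left) and 12 shoot (right) libraries coloured by group. In root the shares lie between 2.14% and 6.38% and are lower in deeper libraries (r = -0.80, n = 12), and in shoot r is -0.02.

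The gene most like ATMG00020 over the 24 libraries was ATMG01390, with r = 0.99 between log2 CPM values, 0.96 within the 12 root libraries and 0.87 within the 12 shoot libraries. The next 4 were nuclear: FBA8 (AT3G52930), a fructose-bisphosphate aldolase, AT4G15610, a CASP-like membrane protein, the metal transporter ZIP2 (AT5G59520) and AT1G64190. Their r over 24 libraries was 0.98 to 0.99, which takes in the level in root against shoot. Within root it was 0.93 for FBA8, 0.89 for AT4G15610, 0.85 for ZIP2 and 0.90 for AT1G64190, and within shoot it was 0.02 for FBA8, 0.36 for AT4G15610, 0.69 for ZIP2 and 0.56 for AT1G64190. Among mitochondrial genes, r with ATMG00020 within root was 0.85 for ATMG00660 and 0.80 for ATMG00030, 0.33 for ATMG01380, 0.01 for ATMG00640 and -0.54 for ATMG00090. Libraries share scaling and depth, so these values are a description.

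A copy of much of the mitochondrial genome lies in the nuclear genome of this species. In TAIR10.1, 70.5% of the 50-base windows of the mitochondrial genome (367808 bases) also occur exactly in a nuclear chromosome, 70.4% in chromosome 2. For 37 protein-coding mitochondrial entries the median was 95.0%, with 15 entries at 100% and 6 at 0%, while the 3 ribosomal RNA genes had at most 0.371%. Entries are not all separate genes: nad1, nad2, nad5 and atp6 have several each, which can differ, as for nad5 at 95.5% and 0%. Counts of short reads from most of the protein-coding genes are therefore uncertain between the mitochondrial and the nuclear genome. How the authors treated reads with several matches is not given in the sources used here, and the codes cannot be placed on this genome. The 15 nuclear rows from AT2G07667 to AT2G07835 held 1978 counts in all, led by AT2G07783 with 456, AT2G07765 with 388 and MCM5 (AT2G07690) with 302. MCM5, a DNA replication helicase subunit, and ABCC13 had no window in common with the mitochondrial genome, and the other 13 did. In root PEG against water, 0 of the 5 of these rows that were tested were called by edgeR at any time, with 2, 0 and 0 at an unadjusted p under 0.05. Of all 9751 genes tested in root, 1248, 780 and 763 had such a p at 1, 2 and 3 h.

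Nuclear genes of mitochondrial function give the setting. The RNA polymerases that transcribe the mitochondrial genome could not be followed: RPOTm (AT1G68990) has no row among those analysed here, and RPOTmp (AT5G15700) had 52 counts and was not tested. In root 0 genes were called at any PEG time in each of 7 lists, which cover mitochondrial RNA processing, complex I, complexes II and III with cytochrome c, complex IV, the ATP synthase, alternative respiration and stress reporters. The numbers tested in root were 7, 13, 14, 9, 11, 6 and 6, and between 0 and 3 of a list had an unadjusted p under 0.05 in edgeR's test. Of all 9751 genes tested in root, 1248, 780 and 763 had such a p at 1, 2 and 3 h. MORF8 (AT3G15000, listed as RIP1), an RNA editing factor, was at 862, 1373 and 976 CPM in root water and 675, 651 and 630 after 1 h of PEG, all lower, with log2 -0.71 ± 0.25 (adjusted p 0.271 in edgeR's test). MORF3 (AT3G06790), a related factor, had -0.49 ± 0.24. CI51 (AT5G08530), a complex I subunit, had -0.54 ± 0.22 and AT5G11770, another, -0.64 ± 0.31. AT5G51440, a mitochondrial small heat shock protein, was at 2.95, 0.754 and 1.91 CPM in root water and at 6.66, 16.7 and 8.76 after 1 h of PEG, with log2 2.32 ± 0.58 (adjusted p 0.124).

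In root the subunits AT3G10860 (complex III), COX6B (AT1G22450), AT3G46430 and ATP3 (AT2G33040), the last 2 of the ATP synthase, were highest in 1 library, PEG 1 h replicate B. They were at 169, 57.5, 84.5 and 104 CPM there, and between 1.60 and 28.7 in the 11 other root libraries. The 2 other libraries of that group lay between 1.80 and 18.1, and the log2 values at 1 h were 2.49, 1.72, 2.21 and 1.23, without a call. The minor mitochondrial genes in that library, at 18.1 counts per 1000 of ATMG00020, lay between those of the 2 other libraries of its group. As a share of counts they were the highest of the group, 0.0670% beside 0.0412% and 0.0472%. ATMG01380, the minor gene with most counts, was also highest there, at 216 CPM beside 96.5 and 96.4. The Rieske subunit AT5G13440 had -0.76 ± 0.30 and the complex IV subunit AT4G28060 -0.61 ± 0.28 at 1 h in root, without a call.

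In shoot calls were made among carriers, an alternative oxidase, stress reporters and 1 complex III subunit. DIC2 (AT4G24570), a mitochondrial dicarboxylate carrier, was at 346, 354 and 313 CPM in water and at 96.4, 156 and 116 after 3 h. It fell at all 3 times, by 1.05 ± 0.20, 1.35 ± 0.20 and 1.44 ± 0.20 on the log2 scale (adjusted p 0.00145, 9.74e-05 and 3.60e-05 in edgeR's test). In root its values were -1.18 ± 0.36, -0.75 ± 0.36 and -1.30 ± 0.36, without a call. The related carrier UCP5 (AT2G22500) fell at 2 h and 3 h in shoot, by 0.64 ± 0.17 and 0.66 ± 0.18. AOX1A (AT3G22370), the main alternative oxidase, rose at 1 h in shoot, from 38.0, 46.2 and 60.3 to 86.2, 62.9 and 99.7 CPM (log2 0.77 ± 0.23, adjusted p 0.0362), and had 0.23 ± 0.23 and 0.10 ± 0.24 at 2 h and 3 h. In root AOX1A had 0.55 ± 0.28, 0.56 ± 0.28 and 0.51 ± 0.28. Of 7 alternative respiration genes tested in shoot, 1 rose and 1 fell at 1 h, where 7.2% of all genes tested in shoot rose and 5.16% fell. At 2 h and at 3 h 2 of the 7 fell, where 3.41% and 6.7% of all genes tested did.

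BCS1 (AT3G50930), also called OM66, an outer membrane protein used as a reporter of mitochondrial stress, fell in shoot by 0.91 ± 0.27, 1.70 ± 0.29 and 1.95 ± 0.32 (adjusted p 0.0366, 0.000402 and 0.000205 in edgeR's test). PHB3 (AT5G40770), a prohibitin, fell at 1 h by 1.50 ± 0.37 (adjusted p 0.0155), and had values of 0.12 ± 0.34 and -0.55 ± 0.36 later. These were the calls among 7 stress reporters tested in shoot, 2 fallen at 1 h and 1 at 2 h and at 3 h, with 0 risen, beside 5.16%, 3.41% and 6.7% of all genes tested fallen and 7.2%, 7.31% and 10.4% risen. Cytochrome c1 (AT5G40810) rose at 3 h by 0.45 ± 0.15 (adjusted p 0.0420 in edgeR's test), 1 of 14 genes tested in its list. In shoot edgeR called 0 genes among 13 of complex I, 5 of complex IV, 11 of the ATP synthase and 6 of RNA processing at each time, with 0 to 4 of a list at an unadjusted p under 0.05. Of all 9207 genes tested in shoot, 2339, 1848 and 2671 had such a p at 1, 2 and 3 h. The complex I subunits EMB1467 (AT5G37510) and GAMMA CA1 (AT1G19580) had -0.60 ± 0.20 and -1.39 ± 0.54 at 1 h, AT4G31010 of the RNA processing list had -0.63 ± 0.30 at 2 h, and AT4G37830 and AT5G04750 had -0.34 ± 0.19 and 0.58 ± 0.21 at 1 h. GAMMA CA1 was at 15.3, 8.29 and 6.06 CPM in shoot water and at 1.00, 3.81 and 6.67 at 1 h, with overlap. Water replicate A was its highest shoot library, as for ATP3 (24.2 CPM) and COX6B (10.1 CPM), and it enters every shoot contrast with water.

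Between tissues in water most genes called in the nuclear lists of respiration and RNA processing were higher in root, as were the mitochondrial genes called. Higher in root were 8 of 13 complex I genes, 11 of 14 genes of complexes II and III and cytochrome c, 6 of 9 of complex IV, 5 of 11 of the ATP synthase and 5 of 7 of RNA processing, with 0, 0, 0, 0 and 1 lower, where 27.1% of all genes tested were higher and 26.2% lower. Their median log2 differences were 0.80, 1.12, 1.46, 0.97 and 1.17, beside -0.02 over all genes tested and 1.38 over the 22 mitochondrial genes tested. Of those 22, only 9 passed the filter on low counts in shoot alone. Among alternative respiration genes 2 of 7 were higher and 3 lower, among them AOX1A (AT3G22370) at -1.50 ± 0.29, and of the stress reporters 4 of 7 were higher and 1 lower.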

How the data were processed

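MARS-seq libraries of 3′ transcript ends were sequenced on a NextSeq instrument, per the labels' protocols. The deposited counts are whole numbers per gene and library, made by the authors with bcl2fastq, cutadapt, STAR 2.4.2a and HTSeq, per the submitters' processing notes. The sources used here do not give the annotation, the strand setting or the treatment of barcodes and multiple matches. The deposited table also holds the authors' log2 fold changes and adjusted p-values for 28 comparisons, from DESeq2 per the submitters' processing notes, of which 9 are used. The direction of the deposited log2 values was read against the counts. Another 48 per-sample columns were not used.

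Root and shoot were fitted apart, and tissues were compared in a joint fit of 24 libraries, with edgeR 4.0.16 (filterByExpr, TMM, robust quasi-likelihood test, R 4.3.3) and Benjamini-Hochberg adjustment over all genes tested. The root fit was tested on simulated counts for PEG 3 h against water, with a coefficient of variation set below the 34.2% of the data. The shoot and joint fits were not tested in this way. Levels are TMM-scaled CPM, except those summed over 12 libraries, which use library totals, and shares and ratios use raw counts with no test. Relations with depth used 100000 permutations, two-sided (scipy 1.17.1). Library pairs differed beyond sampling noise (chi-square per degree of freedom 2.30 to 35.3), so none was merged.

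Alternatives were DESeq2 1.42.0, limma-voom (limma 3.58.1), library totals, nuclear scaling, removal of ATMG00020, no filter, the joint fit, a replicate block, and leaving out each library. Other sums and denominators for the minor genes were chosen after seeing the data. The members and the lists were chosen with earlier results of these data known. All ATMG rows are members. Members tested, or with at least 100 counts, are given with values. Each nuclear list has 2 genes named per tissue, those of lowest adjusted p over the PEG times, besides AOX1A, RPOTm and RPOTmp. The 3 rows with most counts in the code range AT2G07667 to AT2G07835, used for the mitochondrial copy, are named, and so are the 5 genes most like ATMG00020.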

Additional observations from a re-analysis of the deposited data

How the results depend on the processing

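In root, 0 of the tested genes were called for PEG against water under every alternative run, including DESeq2, limma-voom, library totals and each left-out library. In shoot, 2 genes were called lower at 2 h, but 0 with the replicate block, 0 in the joint fit, and 0 to 2 when single libraries were left out. At 3 h 1 was called lower, but 0 with DESeq2, 0 in the joint fit, 1 with the replicate block, and 0 to 1 with libraries left out. For the change in root minus shoot at 2 h, 0 were called higher, but 1 with DESeq2, 1 with library totals and 0 to 1 with libraries left out (1 without root water replicate B). The cause was not tested. Within a tissue, correlations of same-letter deviations ran from -0.53 to 0.68 in root and from -0.39 to 0.13 in shoot. Those of different letters ran from -0.67 to 0.62 in root and from -0.22 to 0.34 in shoot. Pairing of root with shoot by letter was not tested, and the joint fit takes the 24 libraries as independent. For root against shoot in water the count of 9 was 12 with DESeq2, 13 with library totals, 7 without a filter, 9 with the replicate block and 6 to 11 with libraries left out. Scaling by library totals moved the median of all genes in this contrast from -0.02 to 0.28. The shares of all genes called under these alternatives are not given here. Leaving ATMG00020 out of the share gave 0.456%, 0.329%, 0.392% and 0.328% in root (water, then 1, 2 and 3 h of PEG) and 0.0199%, 0.0181%, 0.0178% and 0.0172% in shoot.

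Left-out libraries moved the mean share within 4.52% to 6.10% in root water, 3.20% to 4.30%, 2.78% to 4.03% and 2.81% to 4.41% in root PEG, 0.261% to 0.282% in shoot water, and 0.246% to 0.263%, 0.249% to 0.255% and 0.192% to 0.232% in shoot PEG. The ratio of minor genes to ATMG00020, PEG over water, ranged over 1.82 to 2.62, 2.22 to 2.70 and 1.51 to 1.92 in root and over 0.925 to 1.03, 0.873 to 1.02 and 1.17 to 1.25 in shoot. Without ATMG01380 it was 0.853 at 1 h and 0.79 at 2 h in shoot, with every PEG library below every water library, and 0.953 at 3 h, with overlap. With ATMG01390 as denominator the shoot 3 h ratio was 1.11, with overlap.

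Signs that reversed belonged to log2 values without a call. Over the main fit and all alternative settings, the log2 value for root PEG 3 h against 1 h ran from -0.43 to 0.65 for ATMG00020 and from -0.28 to 0.57 for ATMG01390. Both reversed without PEG 3 h replicate B. For shoot PEG 1 h the log2 value ran from -0.16 to 0.099 for ATMG00020 and from -0.21 to 0.16 for ATMG01390, and the joint fit gave 0.0596 and 0.0121. For root minus shoot it ran from -0.97 to 0.28 for ATMG01390 at 2 h, and at 3 h from -0.95 to 0.21 for ATMG00020 and from -0.91 to 0.0713 for ATMG01390. Scaling by library totals moved the median of all genes in root to 0.41, 0.26 and 0.29 on the log2 scale.

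Depth limits the sparse genes: 11 of 33 had at most 95 counts over 24 libraries, and ATMG00640 had 8 counts in the 3 root water libraries. A missing call in root, where the coefficient of variation was 34.2%, does not show that a gene did not change. Depth and the share of ATMG00020 moved in opposite directions in root, and the 2 h and 3 h PEG groups also differ from water in time in liquid, which cannot be told apart here.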
